A study of Mus musculus with 6 samples.

Results

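Inflammasomes are the cytosolic sensors, adaptor and caspases that turn the detection of microbes or cell damage into interleukin-1 release and pyroptosis, a lytic form of cell death. The 10 genes described here were chosen by their mouse symbols (Nlrp3, Aim2, Nlrc4, Naip2, Naip5, Pycard, Casp1, Casp4, Casp8 and Gsdmd), and all 10 were among the 49315 genes of the count table. RNA was sequenced from RAW264.7, a wild-type mouse macrophage-like cell line, in 2 groups of 3 libraries. One group had been treated with 4 μg/mL SKI-II, a compound that inhibits sphingosine kinases, for 24 h, and the other with an equal amount of the solvent DMSO alone. No bacteria, lipopolysaccharide or other inflammasome trigger is named for these samples, so the values below are those of resting or compound-treated cells. The comparison asks which inflammasome and pyroptosis transcripts differed in abundance between the SKI-II and DMSO libraries.

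As background, each sensor answers to its own class of signal. NLRP3 reacts to membrane and ion disturbance, AIM2 to cytosolic DNA, and the NAIP proteins to bacterial flagellin and secretion system parts, which they pass to NLRC4. Sensors recruit caspase-1, in many cases through the adaptor ASC (encoded by Pycard), and caspase-1 matures interleukin-1β and interleukin-18. Caspase-11, encoded in the mouse by Casp4, binds cytosolic lipopolysaccharide, and both caspases cut gasdermin D, whose released fragment forms pores in the plasma membrane. Caspase-8 drives extrinsic apoptosis, holds back necroptosis and can enter inflammasome complexes. RAW264.7 cells are known for lacking ASC.

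Transcripts of 5 of the 10 genes were higher with SKI-II, and 0 passed the test as lower. Casp4, Naip5 and Nlrp3 were each more than 2-fold higher, whereas Naip2 and Casp8 rose by 1.63-fold and 1.56-fold. Casp1, Aim2, Nlrc4 and Gsdmd did not pass the test, and Pycard had too few counts for it. Throughout, a gene was called when the quasi-likelihood test of edgeR gave it a p, adjusted by Benjamini-Hochberg over 12274 tested genes, of under 0.05. Beside the 5 of 9 tested members called higher, 18.4% of all tested genes were called higher. Beside the 0 members called lower, 19.7% of all tested genes were called lower. With a log2 fold change beyond 1 required as well, 3 members were called higher against 8.28% of all tested genes, and 0 lower against 7.44%. The members' median log2 fold change was 0.64, within a range of -0.71 to 1.17, and that of all tested genes was 0.0038. For 6 members all SKI-II values exceeded all DMSO values, as for 24.8% of all tested genes, and for 1 member all were smaller, as for 25.5%. These are counts over a short list chosen by function, and its genes are not independent of each other.

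Total counts ran from 12495957 to 20050677 per library, and the scaling factors applied to them from 0.941 to 1.046. Values are given as normalized counts, meaning counts scaled to a common library size of 16042438, and, where genes are compared with each other, as RPKM, which scales reads to library size and to kilobases of exon. The labels do not say whether libraries of a group came from separate cultures, so p-values measure the spread between these libraries only. In bulk RNA, fewer cells carrying a transcript and less of it per cell cannot be told apart. All 8 macrophage markers examined were tested, and their summed level ran from 8428 to 12489 CPM, a count scaled to library size, in DMSO and from 4268 to 6773 in SKI-II libraries. That gap came from Lyz2, since the sum of the other 7 ran from 2813 to 3103 with DMSO and from 2763 to 2953 with SKI-II, with overlap (a sum added after the values were seen). Among them Adgre1, Itgam and Lyz2 were lower with SKI-II (log2 fold changes of -0.92, -0.93 and -1.26), Fcgr1 was higher (2.17), and Csf1r, Cd68, Spi1 and Ptprc were not called. Summed markers of fibroblasts, epithelial, T, B, dendritic cells and neutrophils did not exceed 6.96 CPM in any library, and those at 0 in all libraries included all 4 epithelial markers, Cd8a, Ms4a1, Ly6g and Flt3. The dendritic cell sum was 4.02 to 5.27 CPM with DMSO and 2.14 to 3.35 with SKI-II, and its one tested marker, Zbtb46, was lower (log2 fold change -0.84, edgeR adjusted p = 0.0451). The part of these marker differences in the results below was not tested.

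Promoter sequence is shown for Nlrp3 and for the members that form neighbouring pairs. Casp1 and Casp4 lie side by side on chromosome 9, and Naip2 and Naip5 side by side on chromosome 13. Each sequence is 300 bases of RefSeq (GRCm38.p6), 5′ to 3′ on the gene's own strand, running from 250 bases before to 50 bases after an annotated start. Capitals mark letters that match 1 of 4 short patterns searched on both strands, and their distance is counted from the start back to the first capital. The patterns were GGNNNTTCC (NF-kB), TGACNNNGC (antioxidant response element), TGATGNAA (ATF4-CHOP composite element) and GAAANNGAA (interferon-stimulated response element).
Casp4, chr9:5308599-5308898, plus strand: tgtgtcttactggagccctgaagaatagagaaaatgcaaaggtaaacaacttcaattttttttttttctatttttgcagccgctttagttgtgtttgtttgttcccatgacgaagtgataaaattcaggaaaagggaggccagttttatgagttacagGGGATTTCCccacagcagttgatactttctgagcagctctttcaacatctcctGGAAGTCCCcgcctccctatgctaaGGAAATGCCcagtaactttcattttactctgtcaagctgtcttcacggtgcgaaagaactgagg
Casp1, chr9:5298267-5298566, plus strand: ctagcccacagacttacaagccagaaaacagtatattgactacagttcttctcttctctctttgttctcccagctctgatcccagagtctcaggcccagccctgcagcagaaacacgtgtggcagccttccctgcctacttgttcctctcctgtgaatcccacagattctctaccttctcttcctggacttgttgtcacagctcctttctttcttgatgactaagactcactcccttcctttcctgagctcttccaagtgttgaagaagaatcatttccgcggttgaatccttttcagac
Nlrp3, chr11:59541319-59541618, plus strand: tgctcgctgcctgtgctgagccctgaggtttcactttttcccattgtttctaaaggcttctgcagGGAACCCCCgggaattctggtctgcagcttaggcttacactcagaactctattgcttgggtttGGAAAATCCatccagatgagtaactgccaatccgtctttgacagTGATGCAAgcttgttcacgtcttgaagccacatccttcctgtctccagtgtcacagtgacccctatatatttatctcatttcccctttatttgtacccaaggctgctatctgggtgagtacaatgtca
Naip2, chr13:100202073-100202372, minus strand: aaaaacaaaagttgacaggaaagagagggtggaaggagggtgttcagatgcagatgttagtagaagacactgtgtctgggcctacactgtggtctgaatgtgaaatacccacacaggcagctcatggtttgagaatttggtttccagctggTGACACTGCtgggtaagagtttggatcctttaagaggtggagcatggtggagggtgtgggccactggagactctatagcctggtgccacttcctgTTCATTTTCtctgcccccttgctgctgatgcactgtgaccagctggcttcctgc
Naip5, chr13:100247287-100247586, minus strand: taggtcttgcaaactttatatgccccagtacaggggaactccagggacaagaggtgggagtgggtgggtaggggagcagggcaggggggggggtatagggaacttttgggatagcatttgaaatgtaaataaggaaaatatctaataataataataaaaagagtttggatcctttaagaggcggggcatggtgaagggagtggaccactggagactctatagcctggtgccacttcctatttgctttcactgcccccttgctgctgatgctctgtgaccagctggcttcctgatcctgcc

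The Casp4 window held 3 matches to the NF-kB letters, at 92, 39 and 14 bases before the start. The Casp1 window held a match to none of the 4 patterns. The Nlrp3 window shown held 2 NF-kB matches, at 185 and 122 bases, and an ATF4-CHOP match at 78 bases before the start. A window at another annotated Nlrp3 start, chr11:59542436-59542735, held 1 NF-kB match and 1 antioxidant response match. Naip2 held an antioxidant response match at 99 bases and an interferon-response match at 4 bases before the start, and Naip5 held none of the patterns. The Naip5 window lies wholly outside the GENCODE M21 gene that was counted (chr13:100211739-100246323). The 2 annotations thus place its start differently. No match overlapped another in the windows shown. Among the other members with a promoter matched by symbol, Nlrc4 had 1 NF-kB match, and Casp8, Aim2 and Pycard had none. Over 32851 promoters of the same length, the NF-kB letters occurred in 18.48%, the antioxidant response letters in 12.39%, the interferon-response letters in 8.56% and the ATF4-CHOP letters in 3.97%. A match of letters is a description of these windows and does not show binding. Of the 10 members, 9 were matched by symbol among the promoters searched. None of those promoters carried the symbol Gsdmd, so its promoter was not searched.

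No member was without counts in all 6 libraries, and Pycard was the one member near the floor. Pycard (ENSMUSG00000030793, chr7:127989708-127993867 in GENCODE M21 on GRCm38) had counts of 0, 2 and 0 with DMSO and of 0, 3 and 1 with SKI-II. The groups overlapped, and 3 of the 6 libraries held no read. Summed and scaled by library size, SKI-II over DMSO gave a ratio of 1.79. The exact 95% counting interval, 0.256 to 19.8, covers counting error only, so no difference was detectable at so few counts. Of the exon bases of Pycard, 485 overlap Gm45205 on the other strand, and the library kit is not one that marks strand, so these few counts cannot be assigned to ASC transcripts with certainty. The other 9 members had between 102 and 13165 counts over the 6 libraries. Nlrc4, with 102, was the least abundant of them.

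Per exon length, with the exons of all annotated transcripts of a gene merged, the members differed widely in level. The order depends on these lengths. With DMSO, Casp1 (1497 bases) had 691 mean normalized counts, fewer than the 796 of Casp8 (2893 bases). In DMSO libraries Gsdmd stood first at 62.3 ± 2.92 RPKM (SD, n = 3), above 93.6% of tested genes on the same scale, and Casp1 came next at 28.8 ± 3.51. Casp8 (17.2 ± 3.93) and Aim2 (17.1 ± 1.68) followed with overlapping libraries, as did Nlrp3 (9.73 ± 2.59) and Naip2 (8.76 ± 0.613), and then Casp4 (3.06 ± 0.599) and Naip5 (2.08 ± 0.381). Nlrc4, the partner that NAIP proteins need, stood far lower at 0.272 ± 0.0811, above 5.32% of tested genes, and Pycard was last at 0.0138 ± 0.0239.

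In SKI-II libraries the order on this per-length scale was the same except that Nlrp3 stood above Aim2. Nlrp3 reached 20.2 ± 2.62 RPKM and Aim2 15.7 ± 0.624, and their libraries did not overlap, although those of Nlrp3 (8.06 to 12.7) had lain below those of Aim2 (16.0 to 19.1) with DMSO. Gsdmd (52.3 ± 9.18), Casp1 (36.9 ± 4.21) and Casp8 (26.7 ± 1.05) remained the first 3 genes. Naip2 (14.3 ± 0.587), Casp4 (6.89 ± 0.541), Naip5 (4.53 ± 0.498) and Nlrc4 (0.168 ± 0.0801) followed Aim2, with no overlap between neighbours in the order, and Pycard was again last (0.0201 ± 0.0242).

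**Figure D1:**
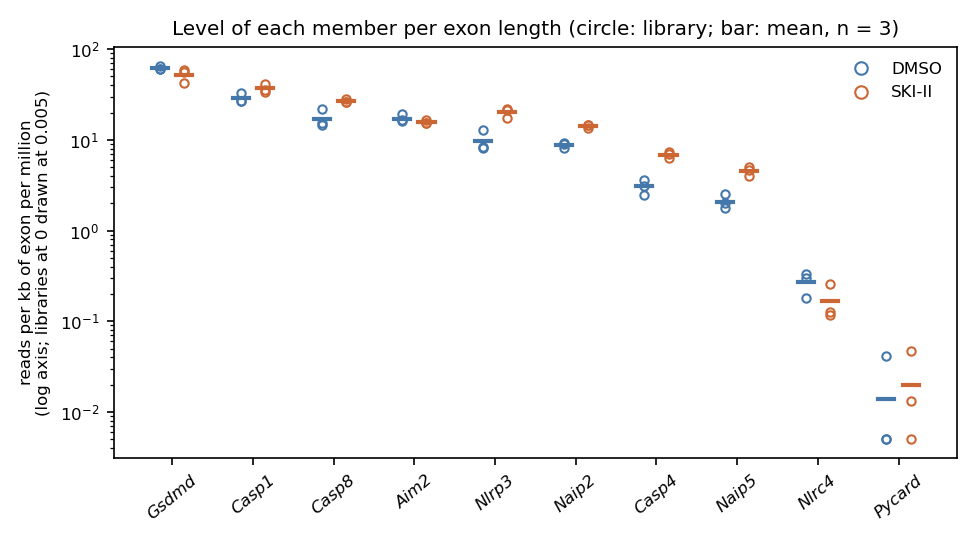
Level of the 10 members in RPKM (vertical axis, logarithmic) for the DMSO and SKI-II libraries, with 1 circle per library and a bar at the mean of 3, and libraries at 0 drawn at 0.005. Gsdmd is highest in both groups, Nlrc4 lies between 0.116 and 0.334, and Pycard does not exceed 0.0470.

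Among the sensors, Nlrp3 (ENSMUSG00000032691, chr11:59541568-59566956) is the gene whose product senses membrane and ion disturbance. It had 828, 548 and 525 normalized counts with DMSO and 1381, 1439 and 1119 with SKI-II. The lowest SKI-II library stood above the highest DMSO library, DMSO replicate 1. Mean normalized counts were 634 ± 168 with DMSO and 1313 ± 171 with SKI-II (SD, n = 3), a 2.07-fold difference with a 95% interval of 1.55 to 2.77 (edgeR quasi-likelihood test, Benjamini-Hochberg adjusted p = 0.00207).

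The neighbouring genes Naip2 (ENSMUSG00000078945, chr13:100144063-100202092) and Naip5 (ENSMUSG00000071203, chr13:100211739-100246323) encode the receptors for the inner rod of bacterial secretion systems and for flagellin. Naip5 had 209, 167 and 147 normalized counts with DMSO and 416, 385 and 334 with SKI-II. Naip2 had 700, 627 and 716 with DMSO and 1057, 1136 and 1137 with SKI-II. For both genes every SKI-II library was above every DMSO library, and the groups were tight relative to the gap. The difference was 2.17-fold (1.63 to 2.88) for Naip5, with an edgeR adjusted p of 0.00127. For Naip2 it was 1.63-fold (1.36 to 1.96), with an edgeR adjusted p of 0.00147. The Naip genes are near copies: 36.78% of the 50-base words in Naip5 exons and 19.12% of those in Naip2 also occur in another gene, mostly other Naip genes, so counting may have moved reads between them or dropped them. At 100 bases the shares were 16.16% and 4.44%.

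Nlrc4 (ENSMUSG00000039193, chr17:74425438-74459142), whose product assembles the inflammasome below the NAIP receptors, did not rise with them. Its raw counts were 24, 11 and 26 with DMSO and 8, 21 and 12 with SKI-II. The groups overlapped, since SKI-II replicate 2 exceeded DMSO replicate 2. The estimate was 0.613-fold with an interval of 0.306 to 1.23 (edgeR adjusted p = 0.241), which is wide because of the low counts and leaves room for either direction.

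Aim2 (ENSMUSG00000037860, chr1:173350879-173466040), the sensor of cytosolic DNA, had 897, 1070 and 919 normalized counts with DMSO and 862, 924 and 864 with SKI-II. The groups overlapped. The difference was 0.918-fold, and its interval of 0.759 to 1.11 covers neither a doubling nor a halving (edgeR adjusted p = 0.469).

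**Figure D2:**
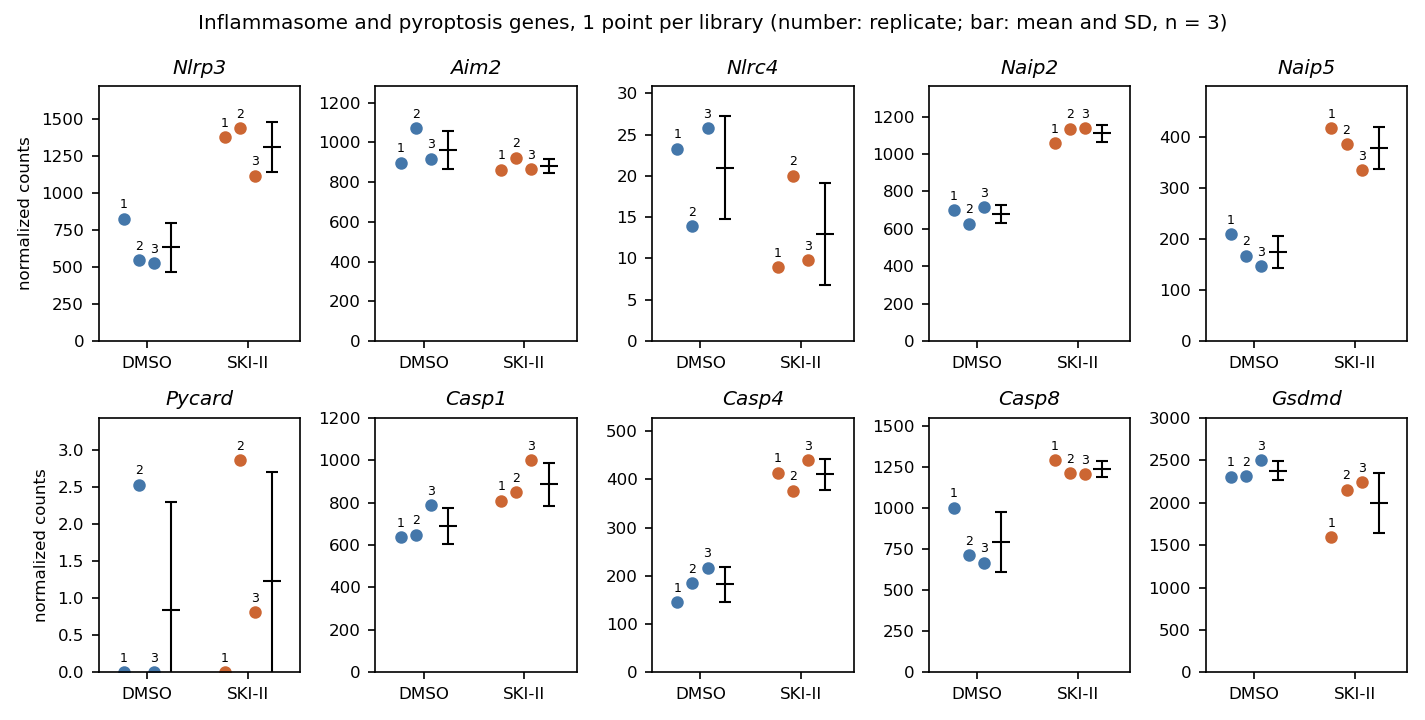
Normalized counts (vertical axes from 0, a scale of its own for each gene) of the 10 members in each library, numbered by replicate, with the mean and SD of 3 libraries beside the points. The SKI-II points lie wholly above the DMSO points for Nlrp3, Naip2, Naip5, Casp1, Casp4 and Casp8, wholly below them for Gsdmd, and overlap them for Aim2, Nlrc4 and Pycard.

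Among the caspases, Casp4 (ENSMUSG00000033538, chr9:5308828-5336783) had the largest fold change of the members in the fit to all 6 libraries. It had 146, 184 and 217 normalized counts with DMSO and 414, 376 and 440 with SKI-II. Every SKI-II library stood above every DMSO library, and the spread within each group was small. The means were 182 ± 35.6 and 410 ± 32.2 (SD, n = 3), a 2.25-fold difference with an interval of 1.70 to 2.98 (edgeR adjusted p = 0.000929). On the per-length scale its level stayed below those of Casp1 and Casp8 in both groups.

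Casp1 (ENSMUSG00000025888, chr9:5298517-5307265), the adjacent gene that encodes the caspase of canonical inflammasomes, moved less. It had 637, 648 and 788 normalized counts with DMSO and 809, 848 and 1000.5 with SKI-II. The groups did not overlap, but DMSO replicate 3 came close to SKI-II replicate 1. The difference was 1.28-fold with an interval of 1.03 to 1.60, and did not pass the threshold after adjustment (edgeR adjusted p = 0.0722). Without DMSO replicate 3 it did (log2 fold change 0.46, adjusted p = 0.0374). It also did with the replicate number as a block (log2 fold change 0.36, adjusted p = 0.0263). Whether the responses of Casp1 and Casp4 differ was not tested.

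Casp8 (ENSMUSG00000026029, chr1:58795374-58847503) encodes the caspase that joins apoptosis, necroptosis and inflammasome signalling. It had 1005, 715 and 668 normalized counts with DMSO and 1296, 1217 and 1207 with SKI-II. The groups did not overlap, and DMSO replicate 1 was the closest to the SKI-II libraries. The means were 796 ± 183 and 1240 ± 48.5 (SD, n = 3), a 1.56-fold difference with an interval of 1.21 to 2.00 (edgeR adjusted p = 0.0117). The call was lost without DMSO replicate 2 (log2 fold change 0.56, adjusted p = 0.0634). It held without DMSO replicate 3, where the log2 fold change was lower, 0.52 (adjusted p = 0.0327). Over all genes, leaving out DMSO replicate 2 lowered those called higher from 2255 to 1507. Of the 50-base words in Casp8 exons, 4.37% also occur in Gm20257.

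Gsdmd (ENSMUSG00000022575, chr15:75862327-75867408), which encodes the pore-forming protein gasdermin D, was the most abundant member and was not higher with SKI-II. It had 2308, 2314 and 2503 normalized counts with DMSO and 1594, 2153 and 2240 with SKI-II. Every SKI-II library was below every DMSO library, with SKI-II replicate 1 the lowest. The estimate was 0.841-fold with an interval of 0.674 to 1.05 (edgeR adjusted p = 0.197), so the difference did not pass the test, and an increase beyond 1.05-fold lies outside the interval.

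**Figure D3:**
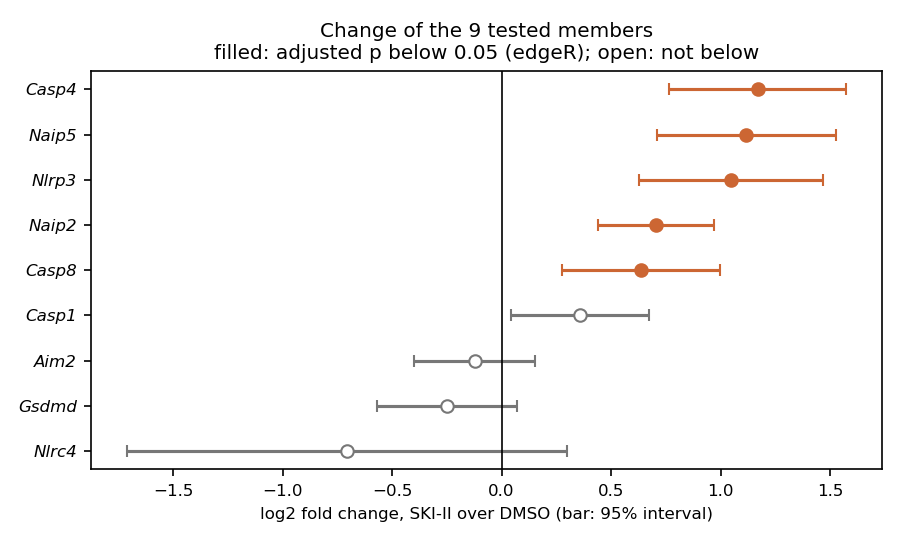
Log2 fold change of SKI-II over DMSO (horizontal axis) for the 9 tested members, with 95% intervals, n = 3 libraries per group. Filled points were called, and these 5 (Casp4, Naip5, Nlrp3, Naip2 and Casp8) lie between 0.64 and 1.17.

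The remaining pathway was read from a list of 88 further genes, of which 87 were in the table and 65 were tested. Of the 65, 15 were called higher and 11 lower, with a median log2 fold change of 0.09 and a range of -1.83 to 1.40. These shares are to be read beside the 18.4% and 19.7% of all tested genes.

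Of 8 further sensors tested, 4 were higher and 0 lower. Nlrp1b, a sensor of pathogen proteases, had 383, 356 and 404 normalized counts with DMSO and 581, 665 and 618 with SKI-II, a 1.63-fold difference without overlap (edgeR adjusted p = 0.00263). Nlrc5, a transactivator of major histocompatibility class I genes, and Nlrc3, a negative regulator of innate signalling, are related NLR genes that form no classical inflammasome of their own, and rose by log2 fold changes of 1.34 and 1.27 (edgeR adjusted p = 0.00298 and 0.00142). Naip6, another flagellin receptor gene, had 183, 136 and 97.0 normalized counts with DMSO and 277, 248 and 173 with SKI-II. Its groups overlapped, since DMSO replicate 1 exceeded SKI-II replicate 3. The 1.67-fold difference did not pass (edgeR adjusted p = 0.0513), but it did without DMSO replicate 1 (adjusted p = 0.0175) and without SKI-II replicate 3 (0.0229). Nlrp1a, a paralogue of Nlrp1b, averaged 26.4 and 38.9 normalized counts and was not called (0.201), Naip1 stayed at 2.48 and 3.49 and was not tested, and Mefv, which encodes pyrin, had 0 counts in all libraries.

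Both further pore and rupture genes tested were higher. Gsdme, which encodes another pore-forming gasdermin, had 166, 139 and 190 normalized counts with DMSO and 378, 365 and 392 with SKI-II, a 2.29-fold difference (edgeR adjusted p = 0.000539). Ninj1, whose product ruptures the plasma membrane in lytic death, had 2439, 3232 and 4385 with DMSO and 5353, 5477 and 6732 with SKI-II. It was 1.75-fold higher without overlap (edgeR adjusted p = 0.0111), although not past the threshold without DMSO replicate 2 (0.0508). The log2 fold change was then 0.77, against 0.80 with all libraries. The difference between their response and that of Gsdmd was not tested.

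Il1b and Il1a, which encode interleukin-1β and interleukin-1α, had few counts. Il1b stayed at 1.64 and 1.93 mean normalized counts and was not tested, and Il1a had 3.89, 1.26 and 10.9 with DMSO and 7.83, 10.5 and 25.3 with SKI-II. The Il1a groups overlapped and it was not called (edgeR adjusted p = 0.135), and its log2 fold change of 1.40 rested on single libraries. It was 2.40 and called without DMSO replicate 3 (adjusted p = 0.0402), and 0.72 and not called without SKI-II replicate 3 (0.486). Il18 averaged 126 ± 5.88 and 130 ± 36.2 (SD, n = 3; edgeR adjusted p = 0.899). The single call of the 5 cytokine system genes tested was Il1rn, the secreted antagonist of the interleukin-1 receptor, with 2133, 1931 and 1779 normalized counts with DMSO and 618, 494 and 554 with SKI-II. It fell to 0.285-fold, with no overlap (edgeR adjusted p = 1.56e-05).

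Regulators of inflammasome activation were mixed, with 5 of 17 higher and 2 lower. Nek7, which encodes the kinase that bridges NLRP3 subunits, had 1842, 1740 and 2070 normalized counts with DMSO and 1254, 1199 and 1246 with SKI-II, opposite in direction to Nlrp3. It fell by 0.61 on the log2 scale (edgeR adjusted p = 0.00275). Kcnk6, a potassium channel gene, had 586, 503 and 589 with DMSO and 180, 207 and 86.4 with SKI-II, a log2 fold change of -1.83 (0.000776). Card6 and Card19, which encode proteins with a caspase recruitment domain, rose by 1.02 and 0.80 (0.0054 and 0.000762).

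In the lipopolysaccharide and interferon-response group 0 of 10 genes were higher and 2 lower. These were Hmgb1, a nuclear protein gene whose product is released on lytic death (2139 ± 107 to 880 ± 199.5 normalized counts, SD, n = 3; edgeR adjusted p = 0.000355), and Irf1, a transcription factor gene (308 ± 42.9 to 203 ± 28.9; 0.0255). Irf1 lost its call when DMSO replicate 1 was left out, and when SKI-II replicate 1 or 3 was (adjusted p from 0.0577 to 0.0734). Its log2 fold changes were then -0.52, -0.63 and -0.50, against -0.61 with all libraries. The 7 tested membrane repair genes, which encode parts of the ESCRT machinery that removes gasdermin pores, had no call in either direction and log2 fold changes between -0.19 and 0.13.

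Around caspase-8 and necroptosis, 4 of 14 genes were higher and 4 lower. Mlkl, which encodes the executioner of necroptosis, had 543, 513 and 534 normalized counts with DMSO and 1026, 918 and 816 with SKI-II (1.74-fold, edgeR adjusted p = 0.00124). Birc3, which encodes a ubiquitin ligase that restrains cell death, had 827, 869 and 933 with DMSO and 384, 356 and 448 with SKI-II (0.452-fold, 0.000208). Both changes were free of overlap between groups. Zbp1, a sensor of unusual nucleic acids, had 79.6, 44.2 and 52.5 with DMSO and 7.83, 22.9 and 31.8 with SKI-II (0.362-fold, 0.0284). Its call was lost when DMSO replicate 1 was left out, and when SKI-II replicate 1 or 2 was (adjusted p from 0.0675 to 0.0822). The log2 fold changes were then -1.20, -1.11 and -1.52, against -1.47 with all libraries.

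**Figure D4:**
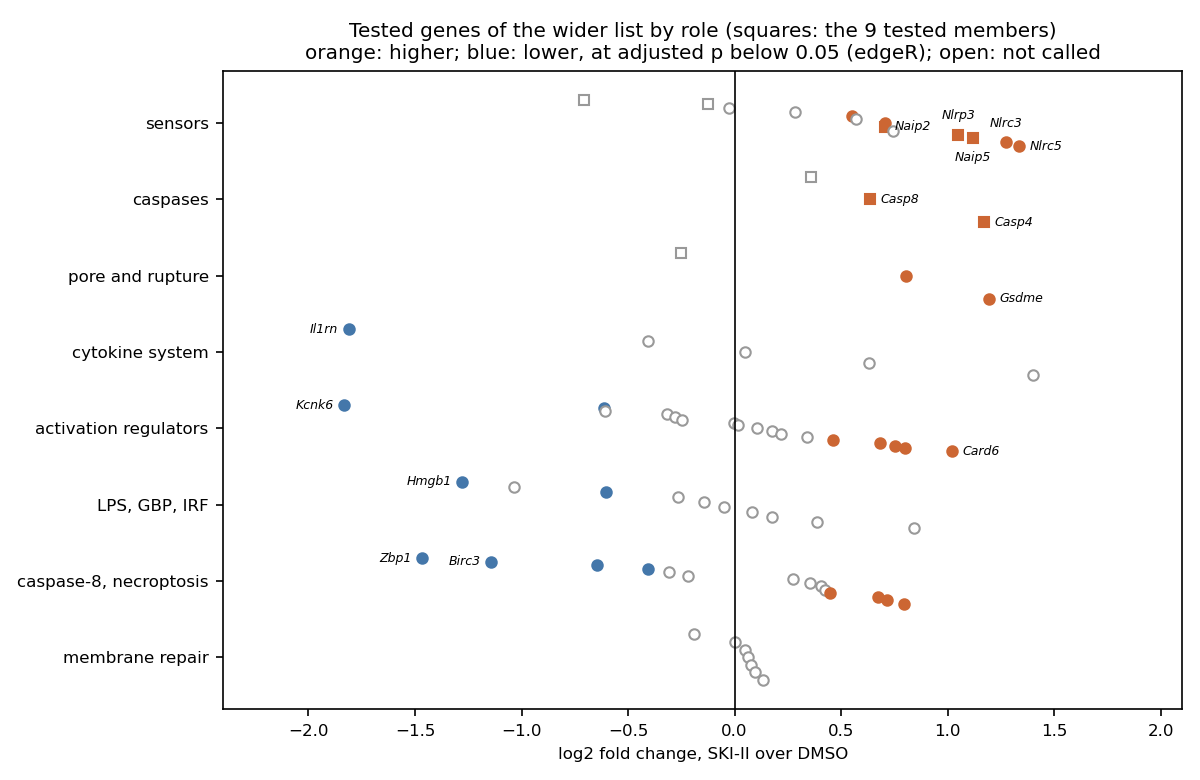
Log2 fold change of SKI-II over DMSO (horizontal axis) for tested genes of the wider list, by role, with squares for the 9 tested members, and filled points for genes called higher (orange) or lower (blue) in edgeR's test with 3 libraries per group. Besides the members, 15 genes are called higher, with lower calls led by Il1rn (-1.81) and Kcnk6 (-1.83) at the far left, and the 7 membrane repair genes lie near 0.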

How the data were processed

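The data are RNA-seq counts per gene for 6 RAW264.7 libraries (SKI-II and DMSO, n = 3 each), made from poly(A)-selected RNA. Per the labels and the submitters' processing notes, the authors used Trimmomatic 0.36, STAR 2.5.2b, featureCounts (Subread 1.5.2) and DESeq2. For the genome build, annotation release and strand setting, nothing is given in the sources used here. The deposited values are raw counts, so multiply mapped reads and gene length are not corrected for.

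Genes with at least 10 counts in enough libraries and 15 in all (filterByExpr) were tested with edgeR 4.0.16 (R 4.3.3): TMM scaling, quasi-likelihood F test, Benjamini-Hochberg adjustment, n = 3 against 3. The methods name DESeq2, which was run as an alternative (1.42.0), as was limma-voom (3.58.1). The common biological coefficient of variation was 17.5%. The edgeR script was tested on simulated data. Intervals are 95% intervals from the moderated quasi-likelihood variance. Exon lengths and positions are from GENCODE M21 (GRCm38), which named 48970 of the 49315 gene identifiers. Of the 98 symbols of the members and wider list, 97 were matched, and Naip7 was not. The share of exon words shared between genes was added after the counts had been read.

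Members, lists and patterns were chosen with earlier results of these data known. All members are named. Of the wider list, the named genes are the other Naip genes, Nlrp1a, Nlrp1b, Mefv, Gsdme, Ninj1, Il1a, Il1b, Il18 and Nek7, and in each role up to 3 called genes with the largest absolute log2 fold change. Some genes that this rule or the marker lists hold are counted in the totals but are not reported here. Alternatives covered the test, scaling, filter, threshold, each library left out and the replicate number as a block.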

Additional observations from a re-analysis of the deposited data

How the results depend on the processing

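Calls of the members changed little with the processing. Nlrp3, Naip2, Naip5 and Casp4 were called higher in all 13 alternatives (test, scaling, filter, replicate block and each library left out) and Casp8 in 12, Casp1 was called in 2, and Aim2, Nlrc4 and Gsdmd in 0, Nlrc4 having a value in 12. Requiring a log2 fold change beyond 1 lowered the counts by construction, to 3 members higher, 4 and 5 genes of the wider list higher and lower, and 1016 and 913 of all genes. With a library left out in turn, 4 to 6 members were called higher and 0 lower, and 1507 to 2227 of all genes higher and 1766 to 2387 lower. Over the named genes 368 of the values kept direction and call, 8 lost the call, 9 gained it and 2 turned direction. The latter 2 were Il18, whose log2 fold change ran from -0.089 to 0.25 with a library left out, at -0.056 without SKI-II replicate 2 and -0.089 without SKI-II replicate 3. The sources do not say that equal replicate numbers share a culture or day, so the numbers were not taken as pairs. Deviations of same-numbered libraries correlated at 0.246, 0.00994 and 0.458, and those of differently numbered libraries from -0.462 to 0.296. Replicate 3 correlated best with its own number, and replicate 2 no better with its own than with another. Whether equal numbers share a factor was not tested. A replicate block gave 6 members higher, with Casp1 added (adjusted p = 0.0263), and 2765 and 2819 of all genes higher and lower. Naip6 also passed with DESeq2 (0.0249), without a filter (0.0067) and with the replicate block (0.00594), and Il1a with the replicate block (0.0456). Pycard, at 6 counts in all from libraries of 12495957 to 20050677 counts each, was too low to compare.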

Other observations

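Some untested genes of the wider list had at most 3 counts in 1 group and more in the other, and are given here after their values were seen. Gsdma, an epithelial gasdermin gene, had 0 counts with DMSO and 41, 19 and 8 with SKI-II, at least 20.2-fold higher when DMSO is set to the floor of 3 counts over the group. Il1r1, which encodes the signalling receptor of interleukin-1, had 0 with DMSO and 31, 22 and 6 with SKI-II, at least 17.6-fold higher on the same floor. For Gsdma and Il1r1 the count in SKI-II replicate 3, the deepest library, was the lowest of its group, and replicate 1 held the most. Leaving out SKI-II replicate 1, a choice made after the values were seen, lowered the bounds to 11.2-fold for Gsdma and 11.6-fold for Il1r1. Nlrp12, an NLR gene, had 0 with DMSO and 2, 4 and 4 with SKI-II. Its bound on the same floor was 2.98-fold, and 2.67-fold without SKI-II replicate 2. Gm12250 had 0 with DMSO and 8, 2 and 1 with SKI-II. No bound is given for Gm12250, since without SKI-II replicate 1 its count was 3, the floor itself. Gbp5, an interferon-induced guanylate-binding protein gene, had 13, 5 and 6 counts with DMSO and 0, 1 and 0 with SKI-II, a ratio of 0.0372 with an exact 95% counting interval of 0.000905 to 0.228. Gsdmc4, another gasdermin gene, had 0, 3 and 5 counts with DMSO and 0, 2 and 1 with SKI-II. Its ratio was 0.335, and the exact counting interval, 0.0572 to 1.40, includes 1. The intervals cover counting error only. The bounds allow for counting error in DMSO alone and take the SKI-II counts as exact. Neither covers the spread between libraries.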
